A study of Mus musculus with 36 samples.

Results

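miR-21a is a mouse microRNA (miRNA) whose hairpin precursor gives miR-21a-5p, the arm that is usually kept as the guide strand, and miR-21a-3p, the partner arm that is usually discarded. Both were taken by their exact names from the 1966 mature miRNA names in small RNA count tables of mouse CD4 T cells (36 libraries), and both were followed through all 10 groups together with the ratio of the arms. miR-21a-5p had counts in 36 of the 36 libraries and miR-21a-3p in 31.

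The cells were CD4+ TCRb+ T cells sorted from the spleens of C57BL/6J mice. The AGO1/3/4 experiment compared wild-type (WT) cells with AGO134-/- cells, which lack AGO1, AGO3 and AGO4 (AGO134 knockout), as naive cells (4 and 4 libraries), after 7 days of T helper 2 (Th2) culture (4 and 4) and after 14 days (3 and 3), and the series text calls the mice of both genotypes littermates. The AGO2 experiment compared CD4Cre;R26LSLeYFP control cells (Cre) with CD4Cre;R26LSLeYFP;AGO2f/f cells (AGO2 knockout) as naive cells (3 and 4) and after Th2 culture (3 and 4), whose length is given as 5 days with the samples and as 7 days in the design text; it is called day 5 here. Both genotypes of that experiment carried the CD4Cre transgene, which expresses Cre recombinase in T cells, and the R26LSLeYFP reporter allele. As named, the genotypes differ only in the floxed Ago2 alleles. Since miRNA tables carry no Ago mRNA, the genotypes could not be checked in these data. Nothing says that replicates came from separate animals, so that p-values measure only the spread between these libraries, which may be technical.

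An miRNA hairpin is cut by Drosha and Dicer into a short duplex, of which an Argonaute (AGO) protein keeps the guide strand and releases the other. The guide then finds its targets mainly through its seed, bases 2 to 8. miR-21 is known to rise when T cells are activated, its known targets include Pdcd4 and the IL-12 subunit gene Il12a, and it has been studied in Th2-type allergic inflammation. It is also known from myeloid, stromal and epithelial cells.

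The mature sequences of both arms are shown because the arms differ in their seeds and hence in their potential targets, and those of miR-21b and miR-21c because their reads resemble those of miR-21a-5p. All are from RefSeq (GRCm38.p6), written from 5′ to 3′ with the seed in capitals.
mmu-miR-21a-5p: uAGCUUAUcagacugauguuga
mmu-miR-21a-3p: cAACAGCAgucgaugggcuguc
mmu-miR-21b: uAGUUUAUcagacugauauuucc
mmu-miR-21c: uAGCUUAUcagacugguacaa

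On GRCm38.p6 miR-21a-5p lies at chr11:86584120-86584141 and miR-21a-3p at chr11:86584082-86584103, both on the minus strand, within the hairpin gene Mir21a at chr11:86584067-86584158. The hairpin lies inside a UTR in an exon of Vmp1, a protein-coding gene on the same strand whose product acts in autophagy. A RefSeq mature sequence was found for 1675 of the 1966 names. Of these, miR-21c alone shared the seed of miR-21a-5p, and 0 others shared that of miR-21a-3p. Counted from 1 at the 5′ end of miR-21a-5p, miR-21b (chr3:29636768-29636790, plus strand) differs by C4U, G18A, G21U and A22C, of which the first falls in the seed. miR-21c (chr8:128278188-128278208, minus strand) differs by A16G, G18A, U19C, U20A and G21A, all outside the seed.

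The near copies were rare in the counts. miR-21b held between 0% and 0.832% of the count of miR-21a-5p in a group and miR-21c between 0% and 0.836%, with the highest shares in WT cells at day 14, where miR-21b had 197 counts and miR-21c 198. The handling of reads that match several entries was not given in the sources used here, so the separate values of miR-21b and miR-21c are uncertain, but a share of this size changes miR-21a-5p little.

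Levels are given in CPM, the count scaled to the library's total over all entries that name a miRNA. The libraries of the AGO1/3/4 experiment held 89594 to 337258 such counts and those of the AGO2 experiment 865 to 72093, so that the limit a count of 0 allows, 3 counts, ran from 8.90 to 33.5 CPM and from 41.6 to 3468 CPM. Intervals and limits cover counting error only. Depth differed between genotypes: before culture it averaged 296309 counts in WT and 192570 in AGO134 knockout libraries, at day 7 it averaged 314883 and 213632, and at day 5 it averaged 63193 in Cre and 36386 in AGO2 knockout libraries, while in the naive AGO2 experiment the knockout was deeper, with 13216.5 against 4935 counts. The 6 T cell marker miRNAs on the list, among them miR-150-5p and miR-142a-5p, were detected in every group.

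In the AGO1/3/4 experiment miR-21a-5p was an abundant miRNA in naive cells and among the most abundant in Th2 culture. In naive WT cells it was measured at 5900, 7482, 7107 and 5978 CPM, where it ranked 28th to 37th of the mature names. In naive AGO134 knockout cells the values were 5607, 7174, 7227 and 4197 CPM. The values of both genotypes overlapped in naive cells, and the lowest came from the library with the fewest counts. At day 7 the WT libraries read 19834, 22635, 26121 and 23510 CPM, with ranks from 3 to 9. The AGO134 knockout libraries read 26949, 27241, 29732 and 32289 CPM at day 7, with ranks of 2 and 3. All 4 knockout values lay above all 4 WT values, by a narrow margin between the nearest pair. At day 14 the values were 28956, 22994 and 23427 CPM in WT and 29622, 22551 and 22413 CPM in knockout cells. In both genotypes at day 14 a single library lay well above the other two.

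In the AGO2 experiment miR-21a-5p was measured with far fewer counts. Naive Cre cells gave 44, 8 and 16 counts, which are 4072, 9249 and 5107 CPM. Naive AGO2 knockout cells gave 81, 85, 57 and 37 counts, or 4005, 6689, 7486 and 3003 CPM. These naive values spread over about the range of the AGO1/3/4 experiment and beyond it on both sides. At day 5 the Cre libraries read 10624, 15244 and 13985 CPM and the AGO2 knockout libraries 11469.7, 8140.07, 9482 and 12947 CPM. The genotypes overlapped at day 5, and all 7 day 5 values of the pair lay between the naive and the day 7 values of WT cells. The rank of miR-21a-5p was 13 to 20 in naive and 13 to 18 in day 5 Cre libraries. In AGO2 knockout libraries it was 10 to 23 and 14 to 17, so the ranks of naive and cultured cells overlapped in this experiment.

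miR-21a-3p was rare in naive cells. The naive WT libraries held 7, 17, 16 and 7 counts of it, or 21.7, 58.5, 51.8 and 26.7 CPM, and the naive AGO134 knockout libraries 6, 4, 13 and 1 counts, or 30.2, 18.0, 50.1 and 11.2 CPM. At day 7 it stood at 358, 564, 929 and 771 CPM in WT and at 624, 940, 752 and 638 CPM in AGO134 knockout cells. Every day 7 library thus lay above every naive one, while the genotypes overlapped at both stages. At day 14 the WT values were 1016, 915 and 1382 CPM and the knockout values 530, 689 and 1059 CPM.

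In naive cells of the AGO2 experiment miR-21a-3p was at the limit of detection. It had 0 counts in all 3 Cre libraries and 0, 1, 1 and 0 counts in the AGO2 knockout libraries. At day 5 it stood at 1056, 1082 and 973 CPM in Cre and at 1749, 845, 1691 and 2094 CPM in AGO2 knockout cells. The knockout library at 845 CPM, the shallowest of its group with 11 counts, lay below all Cre libraries, and the other 3 lay above them.

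**Figure D1:**
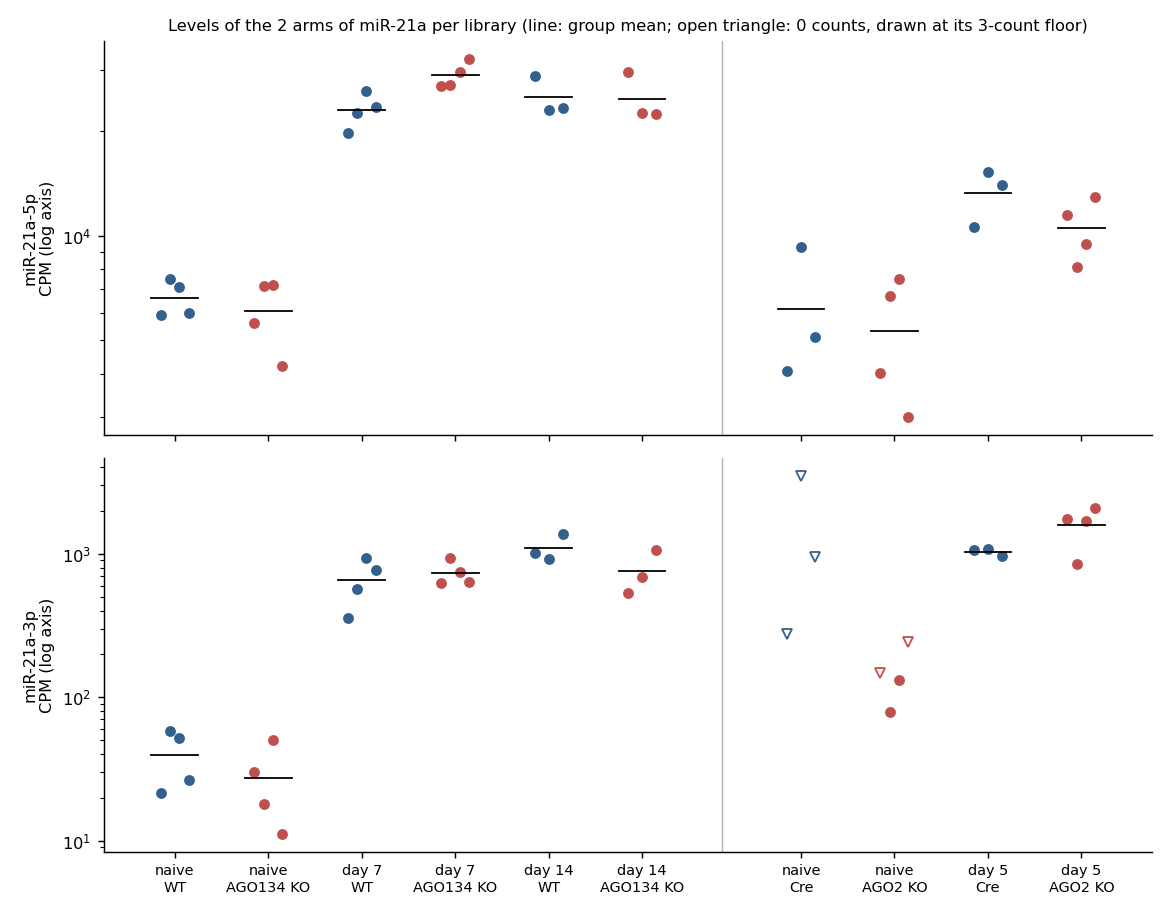
Level of miR-21a-5p (top) and miR-21a-3p (bottom) in each of the 36 libraries, in CPM on a log axis, for the 10 groups, with controls in blue and knockouts in red, black lines for the group means and open triangles for libraries with 0 counts, drawn at their limit of 3 counts. The day 7 and day 14 libraries sit between 19834 and 32289 CPM for miR-21a-5p, above all naive ones.

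Ordered by mean, miR-21a-5p was highest in AGO134 knockout cells at day 7, at 29053 ± 2493 CPM (SD, n = 4). WT cells at day 14 followed at 25126 ± 3324 (n = 3), AGO134 knockout cells at day 14 at 24862 ± 4123 (n = 3) and WT cells at day 7 at 23025 ± 2592 (n = 4). Below these stood Cre at day 5 with 13284 ± 2389 (n = 3) and AGO2 knockout at day 5 with 10509.6 ± 2124 (n = 4). The naive groups came last, with means of 6617 in WT, 6142 in Cre, 6051 in AGO134 knockout and 5296 in AGO2 knockout cells. Neighbours in this order overlapped except at 2 places, between WT at day 7 and Cre at day 5 and between AGO2 knockout at day 5 and naive WT. Day of culture and experiment cannot be told apart in the gap between day 5 and day 7.

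miR-21a-5p rose from naive cells to day 7 in both genotypes of the AGO1/3/4 experiment. In WT cells the ratio of mean CPM was 3.48, with a log2 fold change of 1.51 (SE 0.13) and an adjusted p of 1.46e-11 in edgeR's quasi-likelihood test. In AGO134 knockout cells the ratio was 4.80, with a log2 fold change of 1.98 (SE 0.13, adjusted p = 8.19e-14, edgeR). All 4 day 7 libraries lay above all 4 naive ones in each genotype. Such calls, at an adjusted p under 0.05, were common here, with 76.4% of the 382 miRNAs tested called in WT (39.5% higher, 36.9% lower) and 74.1% in the knockout (39.8% higher, 34.3% lower). The median change of all tested miRNAs was 0.11 and 0.08.

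The partner arm rose further than the guide. miR-21a-3p increased 16.5-fold in mean CPM in WT cells, with a log2 fold change of 3.75 (SE 0.31, adjusted p = 9.11e-12, edgeR). In AGO134 knockout cells it increased 27.0-fold, with a log2 fold change of 4.32 (SE 0.36, adjusted p = 9.90e-12, edgeR), where the naive group rests on 24 counts in all. The difference between the genotypes in this rise was 0.57 (SE 0.55, adjusted p = 0.709, edgeR) for miR-21a-3p and 0.47 (SE 0.18, adjusted p = 0.180, edgeR) for miR-21a-5p. Neither passed the threshold, in a test of the difference that called 2.36% of miRNAs.

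From day 7 to day 14 the partner arm rose in WT cells, while a change of the guide arm there was called only under some alternatives. miR-21a-5p changed by 0.24 (SE 0.13, adjusted p = 0.146, edgeR) in WT and by -0.27 (SE 0.14, adjusted p = 0.105, edgeR) in AGO134 knockout cells. The WT change was called with DESeq2 size factors (0.35, adjusted p = 0.0425, edgeR), all locus entries (0.40, adjusted p = 0.0211, edgeR), DESeq2 (0.35, adjusted p = 0.0248) and these 2 groups fitted alone (0.24, adjusted p = 0.0356, edgeR). In WT cells miR-21a-3p rose by 0.87 (SE 0.24, adjusted p = 0.00311, edgeR), in a comparison where 50% of miRNAs were called, although 1 of the 3 day 14 libraries lay within the range of the day 7 libraries, and the call was lost with STD scaling (0.66, adjusted p = 0.128, edgeR). In knockout cells its change was -0.01 (SE 0.25, adjusted p = 0.984, edgeR), where 44.8% of miRNAs were called. The knockout-minus-WT difference of these changes was -0.51 (SE 0.19, adjusted p = 0.0786, edgeR) for miR-21a-5p and -0.87 (SE 0.34, adjusted p = 0.0943, edgeR) for miR-21a-3p, against 12% of miRNAs called. The difference was called for miR-21a-5p with DESeq2 (-0.57, adjusted p = 0.0322), and for miR-21a-3p with no filter (-0.83, adjusted p = 0.0489, edgeR), with the replicate number as a block (-1.11, adjusted p = 0.0338, edgeR) and without day 7 WT library 3 (-1.03, adjusted p = 0.0415, edgeR).

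In the AGO2 experiment the rise of miR-21a-5p by day 5 was called in control cells with TMM scaling. The ratio of means was 2.16 in Cre cells, with a log2 fold change of 1.10 (SE 0.38, adjusted p = 0.0195, edgeR), where 56.1% of the 98 miRNAs tested were called (36.7% higher, 19.4% lower). In AGO2 knockout cells the ratio was 1.98 and the log2 fold change 0.71 (SE 0.30, adjusted p = 0.0564, edgeR), which missed the threshold that 51% of miRNAs passed (37.8% higher, 13.3% lower), although all 4 day 5 libraries lay above all 4 naive ones. The median change of all tested miRNAs was itself 0.69 in Cre and 0.54 in AGO2 knockout cells. The call in Cre cells was lost without naive library A (1.01, adjusted p = 0.0528, edgeR) or C (0.84, adjusted p = 0.0817, edgeR), without both B and C (1.13, adjusted p = 0.0660, edgeR), with loess offsets (0.51, adjusted p = 0.239, edgeR) and with the replicate letter as a block (1.03, adjusted p = 0.0600, edgeR). In AGO2 knockout cells a call was gained with library size alone (1.08, adjusted p = 0.0150, edgeR) and with STD scaling (1.85, adjusted p = 0.00113, edgeR). Under these scalings the median of all tested miRNAs stood at 0.94 and 1.66. The difference between the changes in Cre and AGO2 knockout cells was -0.39 with TMM (SE 0.48, adjusted p = 0.609, edgeR), with 12.2% of miRNAs called.

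miR-21a-3p went from the limit of detection to the more abundant miRNAs in the same cells. Summed over libraries, Cre cells had 0 of 14804 miRNA counts before culture and 198 of 189580 at day 5, which makes the level at least 5.15-fold higher against a limit of 3 counts over the naive group (adjusted p = 0.000556, edgeR). AGO2 knockout cells had 2 of 52866 counts before culture and 258 of 145543 at day 5, a ratio of 46.9 with an exact 95% counting interval of 12.8 to 389 (adjusted p = 7.03e-07, edgeR). The fold itself is poorly bounded in both genotypes because the naive libraries were shallow.

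Markers of T cells and of other cells changed in part over the same step, and most of the sums rest on a few members. For comparison, 36.9% of all tested miRNAs were called lower and 39.5% higher from naive to day 7 WT cells. The 6 T cell markers summed to 84283 to 89079 CPM in naive WT and to 48844 to 52968 CPM in day 7 WT libraries. Of the 6, 4 were called lower. Some of them, such as miR-150-5p and miR-181a-5p, are also on the list of miRNAs lost on activation, and miR-155-5p is on the induced list. The 5 myeloid markers summed to 777 to 1130 CPM and then to 298 to 543 CPM. Of these only miR-139-5p was abundant enough to be tested (called lower), and it is also on the list of miRNAs lost on activation; miR-223-3p, the defining myeloid miRNA, was at 0 in all day 7 libraries. The 7 epithelial markers summed to 2852 to 3345 CPM and then to 858 to 1157 CPM, with 4 of 6 tested called lower, and the 4 markers of red cells and platelets to 220.4 to 660.3 CPM and then to 59.7 to 103 CPM, with 1 tested and called lower. The 6 endothelial and stromal markers summed to 111 to 279 CPM and then to 772 to 1028 CPM, with 2 of 3 tested called higher. In the AGO2 experiment this last sum was 319 to 1156 CPM in naive and 44.0 to 101 CPM in day 5 Cre libraries. In AGO2 knockout libraries it was 49.4 to 551 and then 0 to 171 CPM. These sums rest on 1 to 5 counts per naive and 3 to 5 per day 5 Cre library. For AGO2 knockout libraries they rest on 1 to 7 and 0 to 8 counts, so no direction is given. The myeloid markers of that experiment summed to at most 319 CPM, a single count. The part of these markers in the rise of miR-21a was not tested. In bulk samples a change in the number of cells that express a miRNA and a change in its amount per cell cannot be told apart.

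The share of miR-21a-3p in the counts of both arms does not depend on how libraries are scaled. In naive WT cells the share was 0.366%, 0.776%, 0.723% and 0.444%, and in naive AGO134 knockout cells 0.536%, 0.250%, 0.689% and 0.265%. At day 7 it was 1.77%, 2.43%, 3.44% and 3.17% in WT and 2.26%, 3.34%, 2.47% and 1.94% in knockout cells. All day 7 shares lay above all naive ones, and the genotypes overlapped at both stages. At day 14 the share was 3.39%, 3.83% and 5.57% in WT and 1.76%, 2.96% and 4.51% in knockout cells. In other terms, a naive WT library held 128 to 272 counts of miR-21a-5p for each count of miR-21a-3p, a day 7 WT library 28.1 to 55.4 and a day 14 WT library 16.9 to 28.5.

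The share was larger still in the AGO2 experiment after culture, where day of culture and experiment cannot be told apart. Cre cells at day 5 gave 9.05%, 6.63% and 6.50%, and AGO2 knockout cells 13.2%, 9.40%, 15.1% and 13.9%. All 4 knockout shares lay above all 3 Cre shares, although the exact 95% interval of the shallowest knockout library, 4.79% to 16.2%, spans every Cre value. Naive Cre cells had 0 counts of miR-21a-3p among 68 counts of both arms, which allows a share of up to 4.41%, and naive AGO2 knockout cells had 2 among 262. A naive share like that of the AGO1/3/4 experiment was therefore not resolvable in the naive Cre libraries.

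**Figure D2:**
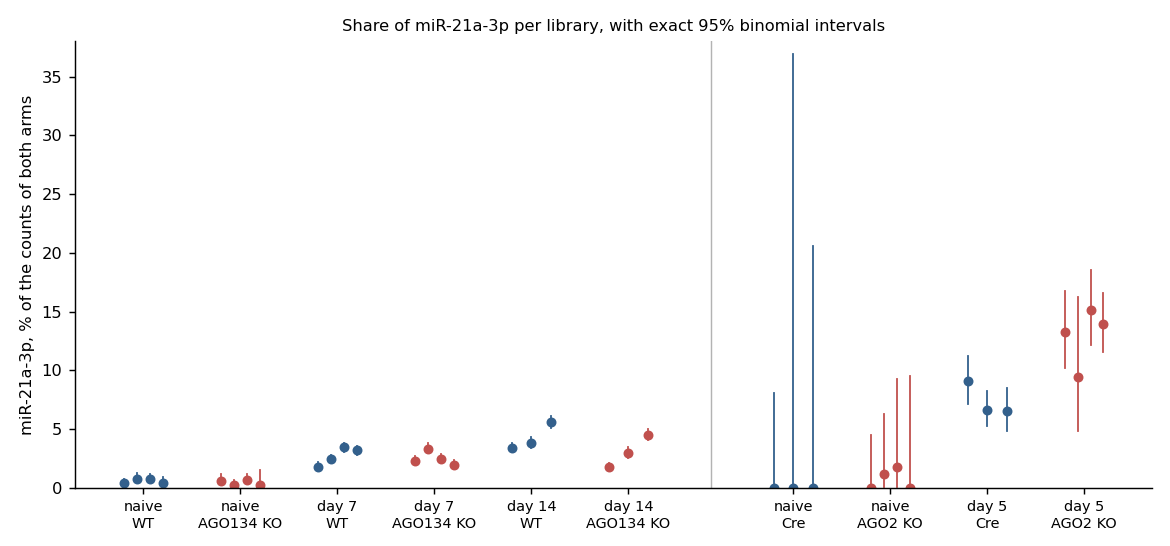
Share of miR-21a-3p in the counts of both arms of miR-21a per library, in percent, with exact (Clopper-Pearson) 95% intervals, controls in blue and knockouts in red. The share is under 1% in every naive library of the AGO1/3/4 experiment and 9.40% to 15.1% in AGO2 knockout cells at day 5, and the wide intervals mark the shallow naive libraries of the AGO2 experiment.

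Ordered by mean, the share was 12.9% ± 2.48 (SD, n = 4) in AGO2 knockout and 7.39% ± 1.43 (n = 3) in Cre cells at day 5. It was 4.26% ± 1.15 (n = 3) in WT and 3.08% ± 1.38 (n = 3) in AGO134 knockout cells at day 14, and 2.70% ± 0.752 (n = 4) and 2.50% ± 0.599 (n = 4) at day 7. The 4 day 7 and day 14 groups overlapped along this order. The order of the share differs from that of miR-21a-5p, which was lower at day 5 than at day 7. Day of culture and experiment cannot be told apart in either order.

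Tested with limma over the log2 ratio of 3p to 5p arm of 94 hairpins, the arm ratio of miR-21a moved toward the 3p arm on Th2 culture. The change from naive to day 7 was 2.22 (SE 0.30, adjusted p = 5.79e-07, limma) in WT and 2.44 (SE 0.30, adjusted p = 9.99e-08, limma) in AGO134 knockout cells. The ratio rose in all 4 day 7 libraries above all naive ones in each genotype, and an exact two-sided permutation test gave p = 0.0286 for each, the smallest that 4 against 4 libraries allow (0.114 after Benjamini-Hochberg adjustment over 8 comparisons). Changes of the arm ratio were called for 55.3% of hairpins in WT and 47.9% in knockout cells, in both directions, with a median change of -0.28 and -0.01. In WT cells 2 hairpins rose further than miR-21a, namely miR-23b (3.16) and miR-98 (2.68), and in knockout cells 3 did, namely miR-210 (3.08), miR-23b (2.85) and miR-1839 (2.77). These hairpins were named after their values were seen. The difference between the genotypes in this change was 0.22 (SE 0.43, adjusted p = 0.838, limma), with 2.13% of hairpins called.

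**Figure D3:**
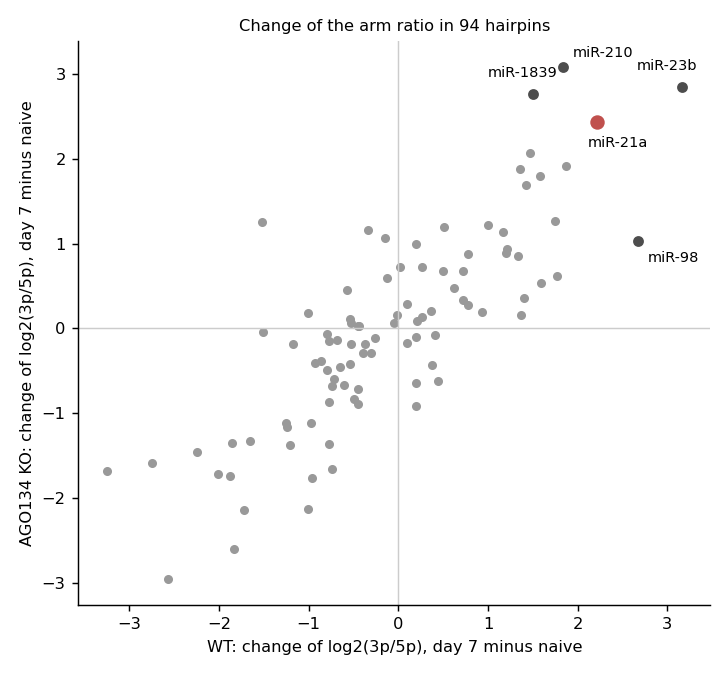
Change of log2(3p/5p) from naive cells to day 7 in WT (horizontal) and AGO134 knockout cells (vertical), each point being 1 of 94 hairpins. miR-21a, in red, lies near the upper right end at 2.22 and 2.44, and the hairpins with a larger rise in a genotype are named.

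Hairpins with a similarly unequal pair of arms did not all move with miR-21a. Over the libraries of the AGO1/3/4 experiment the mean log2 ratio was -5.98 for miR-21a, and the nearest hairpins were miR-183 (-6.15), let-7b (-6.29) and miR-30d (-6.34). From naive cells to day 7 in WT, the ratio of miR-183 changed by 0.20 (adjusted p = 0.733, limma), that of let-7b fell by 1.20 (adjusted p = 0.00155, limma) and that of miR-30d rose by 1.21 (adjusted p = 0.000345, limma). Of these 3, then, a hairpin moved in each direction and another showed no called change.

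After day 7 the arm ratio showed no called change in the fit over all groups. It changed by 0.69 (SE 0.33, adjusted p = 0.133, limma) in WT, where 20.2% of hairpins were called. In AGO134 knockout cells it changed by 0.23 (SE 0.33, adjusted p = 0.607, limma), where 26.6% were. With the 2 WT groups fitted alone the adjusted p was 0.0215 (limma), where 26 of 85 hairpins were called higher and 13 lower. In the fit over all groups the 19 hairpins called in WT fell to 7 without day 7 library 3 or day 14 library 3. They fell to 10 without day 7 library 4 and to 11 without day 14 library 2. The 25 called in the knockout fell to 13 without day 14 library 3. Nor was a difference between AGO134 knockout and WT cells called at any stage. The difference was -0.32 (SE 0.30, adjusted p = 0.455, limma) in naive cells, where 27.7% of hairpins were called, -0.10 (SE 0.30, adjusted p = 0.858, limma) at day 7, where 3.19% were, and -0.56 (SE 0.35, adjusted p = 0.464, limma) at day 14, where 1.06% were. In AGO2 knockout against Cre cells at day 5 the difference was 0.90 (SE 0.64, adjusted p = 0.375, limma) over the 9 hairpins that could be tested, of which 22.2% were called, and the exact two-sided permutation p was 0.0571, the smallest that 4 against 3 libraries allow. With these 2 groups fitted alone the adjusted p of the same difference was 0.0353 (limma), where 2 of 25 hairpins were called higher and 3 lower.

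Loss of AGO1, AGO3 and AGO4 went with a higher relative level of miR-21a-5p at day 7. Mean CPM was 29053 ± 2493 (SD, n = 4) in the knockout and 23025 ± 2592 (n = 4) in WT cells, a ratio of 1.26, and the log2 fold change was 0.66 (SE 0.13, adjusted p = 0.000998, edgeR). In this comparison 14.4% of miRNAs were called, 8.64% as higher and 5.76% as lower. The call held without any single library of either group, with log2 fold changes of 0.56 to 0.70. Its size depended on the scaling of the libraries, as the plot of genotype differences under 5 scalings shows. With library size as the only scaling it was 0.35 (adjusted p = 0.0772, edgeR), and with scaling to the STD entries, which name no miRNA, it was 0.02 (adjusted p = 0.935, edgeR). Under those 2 scalings the median of all tested miRNAs stood at -0.31 and -0.63, against -0.02 with TMM. miR-21a-5p lay 0.66, 0.64 and 0.67 above the median in turn. These scalings move all miRNAs of a library together, so this distance could hardly change between them. Offsets fitted by loess against abundance can change the distance, and left miR-21a-5p 0.28 above the median (adjusted p = 0.168, edgeR). Per 1000 STD counts the libraries held 39.6 ± 5.88 (SD, n = 4) counts of miR-21a-5p in WT and 40.04 ± 2.43 (n = 4) in knockout cells.

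In naive cells and at day 14 the guide arm showed no called difference between these genotypes with TMM scaling. The log2 fold change of miR-21a-5p was 0.19 (SE 0.13, adjusted p = 0.329, edgeR) in naive cells, where 18.3% of miRNAs were called, and 0.15 (SE 0.14, adjusted p = 0.481, edgeR) at day 14, where 19.6% were. In naive cells the sign turned with the scaling: it was -0.11 with library size alone and -0.55 (adjusted p = 0.0112, edgeR) with STD scaling, where the median of all miRNAs stood at -0.33 and -0.77. At day 14 it was -0.01 and -0.31 under these scalings. With loess offsets the value was -0.11 in naive cells and -0.11 at day 14, where the median of all miRNAs stood at -0.004 and 0.008. miR-21a-3p showed no called difference, with -0.08 (SE 0.50, adjusted p = 0.936, edgeR) in naive cells, 0.49 (SE 0.23, adjusted p = 0.170, edgeR) at day 7 and -0.38 (SE 0.26, adjusted p = 0.309, edgeR) at day 14. The standard error of 0.50 in naive cells, from 47 counts in WT and 24 in the knockout, leaves room for a sizeable difference in either direction.

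Depth and the share of STD entries differed with genotype at day 7. The knockout libraries were shallower and STD entries took 42.0% ± 2.29 (SD, n = 4) of their counts, against 36.9% ± 0.839 (n = 4) in WT. The myeloid markers summed to 208 to 328 CPM in knockout and 298 to 543 CPM in WT libraries, the endothelial and stromal markers to 521 to 810.1 and 772 to 1028 CPM, and the epithelial markers to 847 to 952 and 858 to 1157 CPM. The ranges of these marker sums overlapped between the genotypes, and none of the sums was higher in the knockout as a group. Of the 1 myeloid, 3 endothelial and stromal and 6 epithelial markers tested, 0 were called in either direction, against 14.4% of all miRNAs. The part of depth and of the STD share in the difference of miR-21a-5p was not tested beyond the scalings above.

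**Figure D4:**
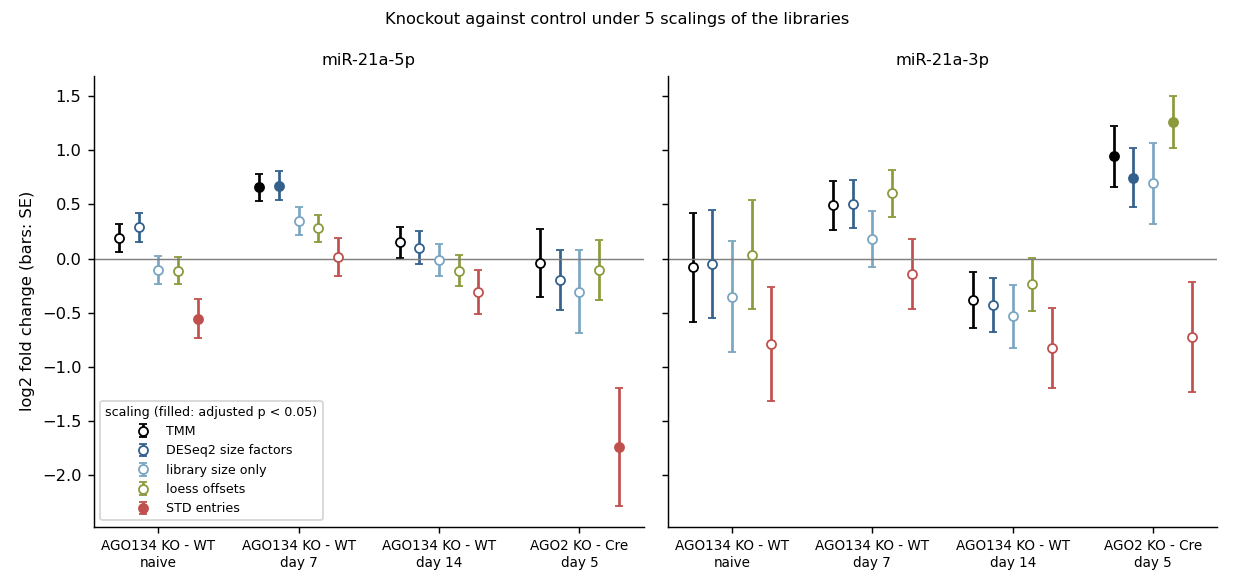
Log2 fold change of miR-21a-5p (left) and miR-21a-3p (right) in knockout against control cells under 5 scalings of the libraries, with bars for the SE and filled points for an adjusted p under 0.05 in edgeR. For miR-21a-5p at day 7 the value runs from 0.67 with DESeq2 size factors to 0.02 with scaling to the STD entries.

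Loss of AGO2 went with a higher relative level of miR-21a-3p at day 5 and no called difference of miR-21a-5p. For miR-21a-3p mean CPM was 1594.5 ± 531 (SD, n = 4) in the knockout and 1037 ± 57.0 (n = 3) in Cre cells, a ratio of 1.54, and the log2 fold change was 0.94 (SE 0.28, adjusted p = 0.00930, edgeR), in a comparison where 44.9% of the 98 miRNAs were called. The call was lost without Cre library A (0.65, adjusted p = 0.141, edgeR), B (0.64, adjusted p = 0.141, edgeR) or C (0.64, adjusted p = 0.151, edgeR), and with library size as the only scaling (0.70, adjusted p = 0.134, edgeR). The call was also lost with no filter on low counts. With scaling to the STD entries the sign turned (-0.72, adjusted p = 0.188, edgeR), where the median of all miRNAs stood at -1.59, and miR-21a-3p lay 0.87 above it. STD scaling moves all miRNAs of a library together, so this distance from the median could hardly change. The log2 fold change of miR-21a-5p was -0.04 (SE 0.31, adjusted p = 0.932, edgeR), and with STD scaling -1.74 (adjusted p = 0.00296, edgeR), 0.15 below the median.

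In this pair of groups STD entries took 60.0% ± 5.19 (SD, n = 4) of the counts of knockout and 35.7% ± 3.34 (n = 3) of those of Cre libraries, and the knockout libraries were shallower. The T cell markers summed to 19264 to 36861 CPM in knockout and 24441 to 25913 CPM in Cre libraries. The 5 myeloid markers had 0 counts in the knockout and 0 to 1 counts in each Cre library, too few to compare. Whether the STD share bears on the change of miR-21a-3p was not tested. In naive cells the log2 fold change of miR-21a-5p was 0.35 (SE 0.37, adjusted p = 0.632, edgeR), with 9.18% of miRNAs called. It was -0.26 with library size alone and 0.95 (adjusted p = 0.0281, edgeR) with all locus entries, and mean CPM was 5296 in the knockout and 6142 in Cre cells, so no direction is given. No fold is given for miR-21a-3p, whose counts were at or under the limit in both groups.

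The miRNAs most like miR-21a-5p over the 22 libraries of the AGO1/3/4 experiment included 3 members of the miR-23-27-24 family. Among 255 miRNAs with a mean of at least 100 CPM, the highest correlations of log2 CPM with miR-21a-5p were those of miR-27a-3p (r = 0.985), miR-23a-3p (0.977), miR-210-3p (0.957), miR-24-3p (0.953) and miR-182-5p (0.951). These 22 points share the same libraries and the step between naive and cultured cells, so the values describe a pattern and no p is given. Over the 14 libraries of the AGO2 experiment the correlations were 0.843, 0.650, 0.819, 0.550 and 0.879. miR-21a-3p itself came 7th with r = 0.948. For miR-21a-3p the most alike were miR-24-2-5p (0.974), miR-183-5p (0.971) and miR-500-3p (0.970).

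Those 5 miRNAs rose from naive cells to day 7 in both genotypes, as miR-21a-5p did. In WT cells the log2 fold change was 1.24 for miR-27a-3p, 1.43 for miR-23a-3p, 5.41 for miR-210-3p, 0.97 for miR-24-3p and 2.05 for miR-182-5p. miR-210-3p, known as a hypoxia-induced miRNA, thus rose much further, from 44.1 ± 14.1 CPM (SD, n = 4) to 2335 ± 677 CPM (n = 4). All 5 were also called higher in AGO134 knockout cells at day 7, where 8.64% of all tested miRNAs were, with log2 fold changes of 0.69 for miR-27a-3p, 0.54 for miR-23a-3p, 0.89 for miR-210-3p, 0.37 for miR-24-3p and 0.57 for miR-182-5p. Values of the 5 with loess offsets, which ended the call of miR-21a-5p, are not given here. With library size as the only scaling miR-27a-3p alone of the 5 was called (0.38, adjusted p = 0.0423, edgeR). With STD scaling none of the 5 was called, and the values of miR-23a-3p (-0.09), miR-24-3p (-0.25) and miR-182-5p (-0.05) turned negative, as did the median of all miRNAs. The likeness was measured on these same libraries, so this is a description and adds no independent support.

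**Figure D5:**
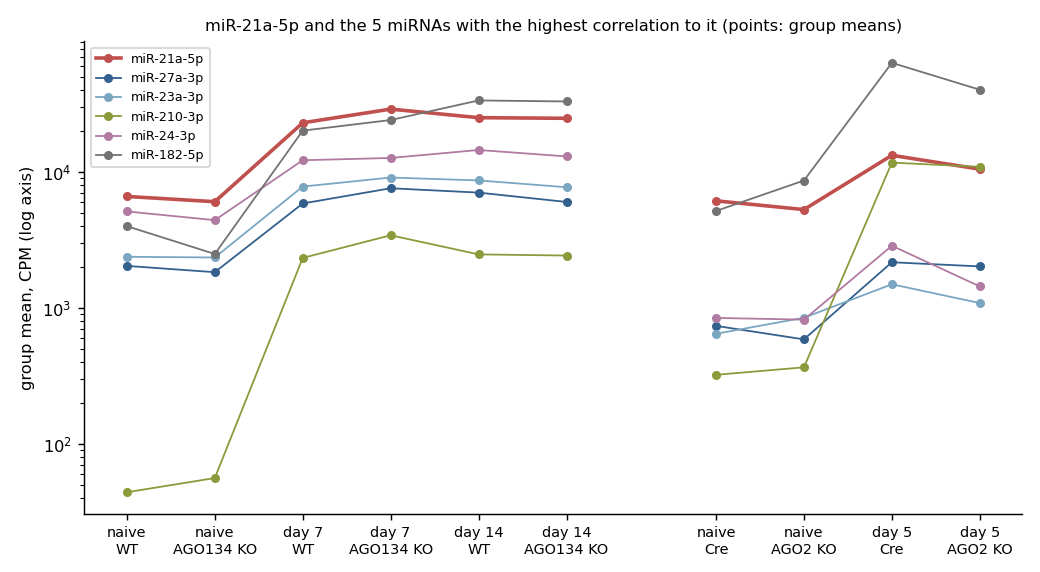
Group means in CPM, on a log axis, of miR-21a-5p (thick red line) and of the 5 miRNAs with the highest correlation to it, with the AGO1/3/4 experiment on the left and the AGO2 experiment on the right. All 6 lines step up from naive to day 7 cells, and miR-210-3p takes the largest step.

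Set among other miRNAs known to be induced by T cell activation, miR-21a-5p moved with most of the list. Of the 21 members, 17 rose and 2 fell from naive cells to day 7 in WT, with a median of 1.12 against 0.11 over all tested miRNAs, of which 39.5% rose and 36.9% fell. In AGO134 knockout cells 15 rose and 1 fell, with a median of 1.22 against 0.08, where 39.8% of all tested miRNAs rose and 34.3% fell. Over the other 4 scalings between 17 and 18 of the 21 rose in WT cells. miR-182-5p, of the miR-183-96-182 cluster that is induced by interleukin-2 in T cells, rose by 2.05 (adjusted p = 5.50e-15, edgeR) and its neighbour miR-183-5p by 3.88 (adjusted p = 2.03e-19, edgeR). miR-155-5p, a miRNA that T cells need for normal helper responses, changed by 0.16 (adjusted p = 0.237, edgeR), so its level did not mark this step. At day 5, 9 of the 21 could be tested, of which 7 rose and 1 fell in Cre cells (median 3.13) and 6 rose in AGO2 knockout cells (median 1.47). Over all 98 tested miRNAs 36.7% rose in Cre cells (median 0.69) and 37.8% in AGO2 knockout cells (median 0.54).

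The miRNAs known to be lost on activation went mostly the other way. Of 16 members, 12 fell and 2 rose in WT cells by day 7, with a median of -0.63, where 36.9% of all tested miRNAs fell and 39.5% rose. With STD scaling, which moved the median of all tested miRNAs to 0.73, 5 fell and 5 rose. Among the most abundant of them, miR-26a-5p fell by 0.47 (adjusted p = 0.00542, edgeR), let-7a-5p by 0.75 (adjusted p = 0.000766, edgeR), let-7f-5p by 0.51 (adjusted p = 0.00774, edgeR) and let-7g-5p by 0.32 (adjusted p = 0.0451, edgeR). let-7 reads can be shared between near-identical family members, so their separate values are uncertain.

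At day 7 the genotype difference of miR-21a-5p was accompanied by part of these lists. Of the 21 activation-induced miRNAs 6 were called higher and 0 lower in AGO134 knockout cells, with a median of 0.33 against -0.02 over all tested miRNAs, of which 8.64% were called higher and 5.76% lower. Of the 12 miRNAs known as regulators of Th2 cells 7 were called higher and 0 lower, with a median of 0.47, among them miR-155-5p at 0.52 (adjusted p = 0.00621, edgeR) and miR-27b-3p at 0.49 (adjusted p = 0.00525, edgeR). Of the 16 miRNAs lost on activation 2 were also called higher, miR-26a-5p at 0.51 (adjusted p = 0.0191, edgeR) and let-7g-5p at 0.44 (adjusted p = 0.0387, edgeR), so the higher calls were not limited to induced miRNAs. The lists share members, and some calls count more than once. Counted as higher in both the induced and the Th2 list were miR-155-5p, miR-27a-3p, miR-24-3p and miR-182-5p. Apart from miR-155-5p these, with miR-210-3p of the induced and miR-23a-3p of the Th2 list, are the 5 miRNAs most like miR-21a-5p. The counts of the lists rest on TMM scaling. With library size alone 1 induced miRNA and 1 Th2 regulator were called higher and 3 of the lost miRNAs lower. With STD scaling 0 were called higher in any of the lists and 1, 1 and 7 lower. The list counts with loess offsets are not given here. Over all 382 miRNAs tested, loess offsets gave 14 called higher, against 33 with TMM.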

How the data were processed

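Total RNA of 36 CD4 T cell libraries was profiled by small RNA sequencing. The authors deposited unnormalised whole-number counts, 1 file for each library and 1 entry for each locus of a mature miRNA, per the file headers. GRCm38 is the build in the submitters' processing notes. Aligner, counting tool, adapter removal, molecular identifiers and strand use were not given in the sources used here. Reads are called single-end with the samples and paired-end in the design text.

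Of the 2119 entries per library, 9 named STD name no miRNA. They took 35.7% to 56.9% of the counts in the AGO1/3/4 experiment and 32.0% to 86.7% in the AGO2 experiment, and stayed out of library sizes and tests. CPM levels were computed over the other 2110 entries. For tests, the entry with the highest total stood for each of the 1966 mature names. With CPM over 1 entry per name, the mean of miR-21a-5p was higher in every group. In WT it was then 8783 CPM in naive and 28396 CPM in day 7 libraries, not 6617 and 23025. In AGO134 knockout it was 8135 and 36088 CPM, not 6051 and 29053. The values of each library came from its own file, and groups and days from the sample labels. No pair of replicates agreed within sampling noise in a chi-square test (lowest statistic per degree of freedom 1.88).

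Counts were tested with edgeR 4.0.16 in R 4.3.3 (quasi-likelihood test, TMM, filterByExpr at a minimum of 10 counts, Benjamini-Hochberg adjustment over all 382 or 98 miRNAs tested, called at an adjusted p under 0.05), in 1 fit for each experiment. Arm ratios, log2((3p + 0.5)/(5p + 0.5)), were tested with limma 3.58.1 over all 94 or 9 hairpins whose arms both passed the filter. All fold changes are thus relative, not absolute amounts. The scripts were tested on simulated data. Alternatives were other scalings (DESeq2 1.42.0 size factors, library size, STD entries, loess), the DESeq2 test, no filter, all locus entries, a replicate block, groups fitted alone, left-out libraries, a pseudocount of 1 and an exact permutation test.

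Named miRNAs were both arms, those sharing a seed with them, the 5 and 3 most correlated with each arm, up to 4 members of each list by mean CPM, and the 3 hairpins nearest in arm ratio. Hairpins with a larger rise than miR-21a were named after their values were seen. The members and lists were chosen with earlier results of these data known, and no list is independent support.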

Additional observations from a re-analysis of the deposited data

How the results depend on the processing

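All values are log2 differences, from edgeR unless limma or DESeq2 is named, and the cause of each change was not tested. The rise of both arms and of the arm ratio from naive cells to day 7 kept its direction in both genotypes under every alternative run. The calls were kept too, except that of the arm ratio in the exact two-sided permutation test. The exact permutation test gave an adjusted p of 0.114 in each genotype. Before adjustment the exact permutation p was 0.0286 in each, the smallest that 4 against 4 libraries allow. For miR-21a-5p in AGO134 knockout against WT cells, library size alone, STD scaling and loess gave -0.105, -0.553 (adjusted p = 0.0112) and -0.111 in naive cells, 0.346 (adjusted p = 0.0772), 0.0161 (adjusted p = 0.935) and 0.281 (adjusted p = 0.168) at day 7, and -0.0113, -0.311 and -0.111 at day 14. For miR-21a-3p the same comparison gave 0.0384 with loess and -0.556 to 0.174 without single libraries in naive cells, and -0.141 with STD scaling at day 7. In AGO2 knockout against Cre cells, miR-21a-5p gave -0.261 with library size alone and 0.947 (adjusted p = 0.0281) with all locus entries in naive cells. At day 5 it gave -1.74 with STD scaling (adjusted p = 0.00296), 0.0517 with all locus entries, 0.0518 with the groups alone, and -0.465 to 0.120 without single libraries. miR-21a-3p at day 5 gave 0.695 with library size alone, -0.723 with STD scaling, 0.686 with no filter (adjusted p = 0.224), and 0.640 to 1.03 without single libraries. From day 7 to day 14 in WT cells, miR-21a-5p became called with DESeq2 size factors (0.350, adjusted p = 0.0425), all locus entries (0.397, adjusted p = 0.0211), DESeq2 (0.350, adjusted p = 0.0248) and the groups alone (0.238, adjusted p = 0.0356), and miR-21a-3p lost its call with STD scaling (0.664, adjusted p = 0.128). In AGO134 knockout cells the value of miR-21a-3p, near 0, turned to 0.0527 (DESeq2 size factors), 0.0746 (loess), 0.0332 (no filter), 0.0682 (all locus entries), 0.0513 (DESeq2) and 0.0574 (groups alone), with -0.189 to 0.224 without single libraries. From naive to day 5, miR-21a-5p in Cre cells lost its call with loess (0.506, adjusted p = 0.239), the replicate block (1.03, adjusted p = 0.0600) and without the shallow naive libraries B and C (1.13, adjusted p = 0.0660), and ran from 0.842 to 1.46 without single libraries. In AGO2 knockout cells it gained a call with library size alone (1.08, adjusted p = 0.0150) and STD scaling (1.85, adjusted p = 0.00113). The genotype difference of the change from day 7 to day 14 became called for miR-21a-5p with DESeq2 (-0.572, adjusted p = 0.0322), and for miR-21a-3p with no filter (-0.830, adjusted p = 0.0489) and with the replicate block (-1.11, adjusted p = 0.0338), with -1.05 to -0.620 without single libraries. That of the change from naive to day 5 was -1.99 for miR-21a-5p with STD scaling (adjusted p = 0.0385). The limma arm ratio with the groups alone was 0.899 (adjusted p = 0.0353) for AGO2 knockout at day 5 and 0.691 (adjusted p = 0.0215) for WT from day 7 to day 14. Without single libraries it ran from -0.289 to 0.0351 for AGO134 knockout at day 7, from -0.105 to 0.594 for the knockout from day 7 to day 14, and from -0.0234 to 0.428 for the difference of changes to day 7. In no comparison did every same-numbered pair deviate together with a correlation over 0.1, so the numbers were not taken as pairs, and the block changed no other call of either arm. With few counts, the naive libraries of the AGO2 experiment limit every comparison that uses them. The number of miRNAs called (higher/lower) moved too. For AGO134 knockout against WT at day 7 it was 33/22 under TMM, 4/43 when scaled by library size, 1/128 by STD entries, 14/22 by loess, 13/22 unfiltered and 38/21 blocked. Leaving out a library gave 24 to 59 calls in all, the fewest without knockout library 4 and 34 to 36 without WT library 2, 3 or 4. Before culture the split was 31/39 under TMM, 8/80 by library size, 0/204 by STD entries and 6/46 when fitted alone, with 37 calls without WT library 1 and 46 without knockout library 4; for day 14 these were 34/41, 22/54 and 2/72. For AGO2 knockout against Cre at day 5 it was 19/25 under TMM, 4/65 by STD entries, 21/55 unfiltered, 25/46 over all locus entries and 37/42 when fitted alone. The change to day 5 in Cre cells gave 36/19 under TMM, 82/2 by STD entries and 18/27 by loess, and in AGO2 knockout cells 37/13, 60/2 and 17/26, or 15/18 when fitted alone. Before culture the AGO2 genotypes gave 2/7 under TMM, 15/16 over all locus entries, and 0 in edgeR without Cre libraries B and C, where 21 miRNAs passed an unadjusted p of 0.05.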
